A study of Homo sapiens with 12 samples.

Results

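The 10 genes described here build, bind or steer the microtubules and growth cones of neurons. They are TUBB3, MAP2, MAPT, MAP1A, MAP1B, DCX, STMN2, STMN4, GAP43 and DPYSL3, taken by name from a count table of 55765 gene symbols. The rule itself uses no measured value, but the list was chosen with earlier results of these data known. All 10 were counted in every library and passed the filter on low counts in every comparison. After removal of ribosomal RNA, total RNA was sequenced from 12 cultures of SH-SY5Y, a neuroblastoma line of human origin subcloned from the bone marrow-derived line SK-N-SH, which extends neurites under all-trans retinoic acid (ATRA). All 4 groups of 3 libraries received ATRA for 7 days, the controls included, so no library shows the cells before differentiation. In the co-treatment experiment the treated cells had hydrogen peroxide (H2O2) together with ATRA, and in the pre-treatment experiment they had it in the 72 h before ATRA, with ATRA-only cultures as controls in both. The H2O2 dose is given as 10 mM in the series description and as 10 µM in the study's methods, so it is uncertain here. The line stands for 1 tumour, and no source states that replicates were grown separately, so p-values measure only the spread between these samples.

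Microtubules are polymers of alpha- and beta-tubulin that carry transport and give an axon its shape. Structural microtubule-associated proteins (MAPs) bind along the polymer, stathmins bind free tubulin dimers and promote disassembly, and growth cone proteins link membrane signals to the cytoskeleton at the neurite tip. TUBB3, DCX and GAP43 are commonly used as markers of young neurons, and several of these genes are known to be raised when neuroblastoma cells differentiate.

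Some libraries stood apart before any gene was tested. Between 27576276 and 98287391 reads were counted on genes per library, so counting error is small for all 10 genes, and replicates differed by 27.6 to 613 times the counting variance (chi-square per degree of freedom). The largest of these values belonged to control replicate 3 of the pre-treatment experiment against control replicates 1 and 2. Per gene read, pre-treatment control replicates 1 and 2 had 0.80 and 0.83 reads outside annotated genes, control replicate 3 had 0.20 and the other 9 libraries had 0.26 to 0.46. Genes of small structured RNAs took 1.59% and 2.88% of counts in the first pair, 17.6% in control replicate 3 and 5.04% to 15.1% elsewhere. In reads outside genes, control replicates 1 and 2 lay farther from the other 9 libraries than control replicate 3 did. Pre-treatment results below are given over all 6 libraries, as labelled. They are also given without control replicate 3, because 1 figure of the study does not show all 6. This replicate also had the largest chi-square values above, so the choice to leave it out is not independent of the data. Control replicate 3 lay within the range of the treated cells in MAP1A, MAP1B, STMN4 and DPYSL3, so leaving it out widens the difference between groups there. The difference grew without it for 9 of the 10 genes, TUBB3 being the exception. Calls from that fit are given as description only. Of 10 noradrenergic neuroblastoma markers, 9 reached at least 24.7 CPM (read counts scaled to library size) in all 12 libraries and TH, the first enzyme of catecholamine synthesis, did not exceed 0.26 CPM. Their summed level was 3268 to 4130 CPM in co-treatment controls and 2353 to 3111 CPM in treated cells, and 2677 to 4196 against 1853 to 2538 CPM in the pre-treatment experiment. Of the 9 noradrenergic markers tested, 1 had a log2FC above 0 and 8 below after co-treatment, and 4 and 5 after pre-treatment, with 0 called in either. The sums of 10 mesenchymal markers overlapped between control and treated cells in both experiments. Of the 8 markers tested, 6 had a log2FC above 0 and 2 below after co-treatment, and 4 and 4 after pre-treatment, with 1 (VIM) and 2 (VIM and COL3A1) called, all higher. Over all genes tested, 50.1% had a log2FC below 0 after co-treatment and 50.6% after pre-treatment, and 0.598% and 0.0242% were called. VIM, the intermediate filament vimentin, was at 5.76 to 9.85 CPM in co-treatment controls against 15.3 to 17.8 in treated cells and at 3.07 to 4.997 against 19.4 to 22.8 CPM in the pre-treatment experiment, where COL3A1, a fibrillar collagen, was at 13.25 to 22.2 against 85.2 to 111 CPM. The sums of 7 Schwann and glial markers lay between 7.26 and 9.83 CPM. Those of 10 proliferation markers were 1188 to 1415 and 1115 to 1403 CPM in co-treatment controls and treated cells. They were 1173 to 1350 CPM in pre-treatment controls and 650, 616 and 1249 CPM in pre-treated replicates 1, 2 and 3. Pre-treated replicate 3 thus lay within the control range, apart from the other pre-treated libraries. The part of these markers in the results was not tested. In bulk RNA, fewer cells of a kind and less RNA per cell cannot be told apart.

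No change in these 10 genes passed the test after H2O2 during differentiation. After H2O2 before differentiation MAP1A and MAP1B, the long structural MAPs, had the lowest fold changes of the 10, and the 3 control libraries differed widely in both genes. Tests on the counts used edgeR's quasi-likelihood method, with Benjamini-Hochberg adjustment over all genes tested (quasi-likelihood adjusted p). A gene was called when this value was below 0.05 and the absolute log2 fold change (log2FC, treated over control) exceeded 0.6 in the co-treatment or 1 in the pre-treatment experiment. In the co-treatment experiment 0 of 10 genes were called, against 0.598% of 22089 genes tested. In the pre-treatment experiment over all 6 libraries 0 of 10 were called, against 0.0242% of 24743 genes. At an unadjusted p below 0.05 there was 1 gene in the first case (8.15% of all genes) and there were 3 in the second (11.2%). DESeq2 called 0 of the 10 after co-treatment, where it called 1.39% of all genes, and 2, MAP1A and MAP1B, after pre-treatment, where it called 2.02%. Without control replicate 3, the pre-treatment test called 3 of 10 genes, against 11.2% of 26350, with MAP1A and MAP1B lower (8.23% of all genes were called lower) and GAP43 higher (2.98%). Over the 10 genes the median log2FC was −0.13 after co-treatment and −0.39 after pre-treatment, or −0.415 without control replicate 3, beside −0.001, −0.007 and 0.011 over all genes tested.

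**Figure D1:**
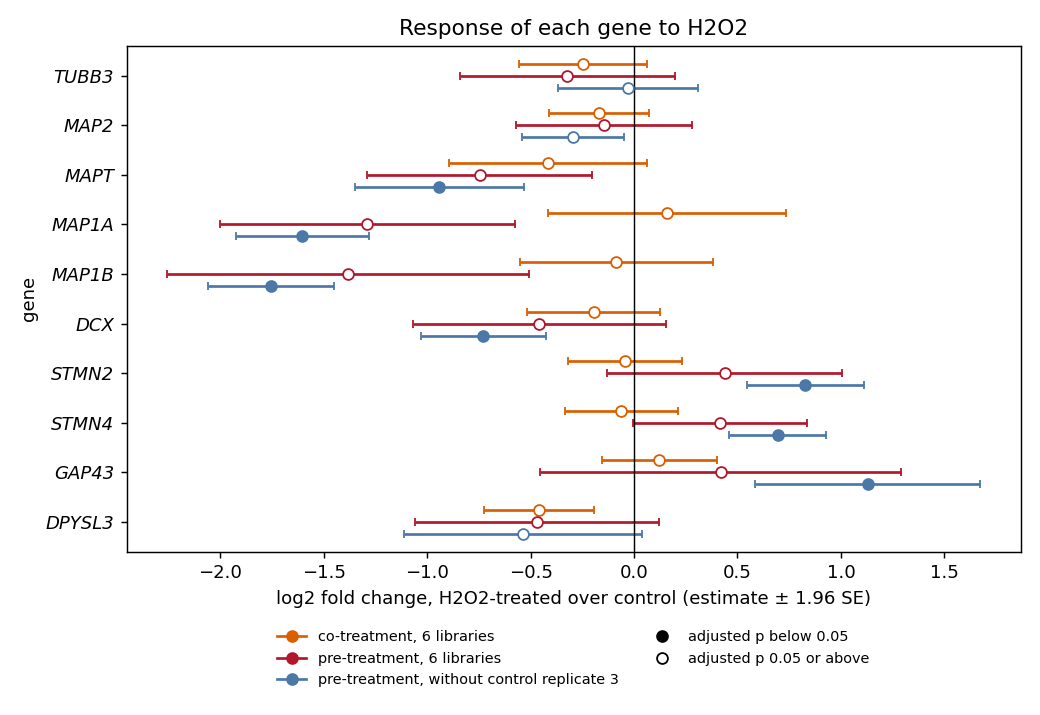
Log2 fold change of each gene, H2O2-treated over control, with bars of 1.96 standard errors on either side of the estimate; filled points have a quasi-likelihood adjusted p below 0.05. All co-treatment points lie between −0.46 and 0.16, and for 9 of the 10 genes the pre-treatment estimate without control replicate 3 lies farther from 0 than the estimate over 6 libraries, TUBB3 being the exception.

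The 3 genes called without control replicate 3 are shown with the 250 bases before their most upstream RefSeq start, since these genes carry the extremes in both directions. The sequences are from RefSeq on GRCh38.p14, plus strand, at chr15:43510704-43510953 for MAP1A, chr5:72107225-72107474 for MAP1B and chr3:115623260-115623509 for GAP43. Capitals mark the E-box (CANNTG), the only one of the searched motifs found in these 3 windows.
MAP1A: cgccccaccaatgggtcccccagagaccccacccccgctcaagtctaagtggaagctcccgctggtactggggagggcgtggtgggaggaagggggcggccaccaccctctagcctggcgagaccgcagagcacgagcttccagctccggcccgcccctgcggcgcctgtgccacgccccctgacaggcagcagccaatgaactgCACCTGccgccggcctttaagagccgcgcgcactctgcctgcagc
MAP1B: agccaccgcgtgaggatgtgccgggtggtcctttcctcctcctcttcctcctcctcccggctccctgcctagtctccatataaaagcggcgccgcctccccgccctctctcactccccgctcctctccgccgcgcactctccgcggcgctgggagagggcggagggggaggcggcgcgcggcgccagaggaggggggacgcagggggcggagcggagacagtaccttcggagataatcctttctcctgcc
GAP43: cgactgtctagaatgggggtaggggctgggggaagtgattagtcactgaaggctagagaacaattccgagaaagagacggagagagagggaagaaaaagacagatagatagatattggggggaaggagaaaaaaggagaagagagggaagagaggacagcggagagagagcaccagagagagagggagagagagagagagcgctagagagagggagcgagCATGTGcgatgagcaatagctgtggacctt
The MAP1A and MAP1B windows hold 70.4% and 70.0% G or C, and the GAP43 window 51.6%. The E-box is bound by basic helix-loop-helix factors such as those of the MYC family, and 61.8% of 35116 RefSeq windows of this length hold it on either strand. Windows were on hand for 7 of the 10 genes, 15 windows in all, of which 8 held an E-box, 3 the antioxidant response element core TGACNNNGC (10.9% of all windows) and 0 the retinoic acid receptor half-site AGGTCA (12.1%). Matches of the 3 motifs were counted separately, also where they overlap, and a match describes letters, not binding.

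Levels per kilobase of the canonical transcript spanned a wide range and kept much of their order. STMN2 was highest, TUBB3 next and MAP1B after it in all 4 groups, and MAPT was lowest in all 4. In co-treatment controls STMN2 stood at 680 ± 98.0 CPM per kb (mean ± SD, n = 3 here and below), TUBB3 at 512 ± 32.3 and MAP1B at 81.9 ± 36.1, with MAPT at 2.49 ± 0.87. Between them, GAP43 (36.99 ± 5.08 CPM per kb), DPYSL3 (36.45 ± 2.41) and MAP2 (35.6 ± 2.60) differed from each other by less than their SDs, and so did DCX (16.3 ± 3.92) and MAP1A (13.6 ± 7.86). In pre-treated cells the top 3 kept their places at 798 ± 47.3, 347 ± 58.8 and 58.8 ± 9.05 CPM per kb, and MAP1A came ninth at 8.53 ± 1.69. In pre-treatment controls the SDs were wider, and STMN2 (597 ± 221) and TUBB3 (440.5 ± 127) differed by less than the SD of STMN2.

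**Figure D2:**
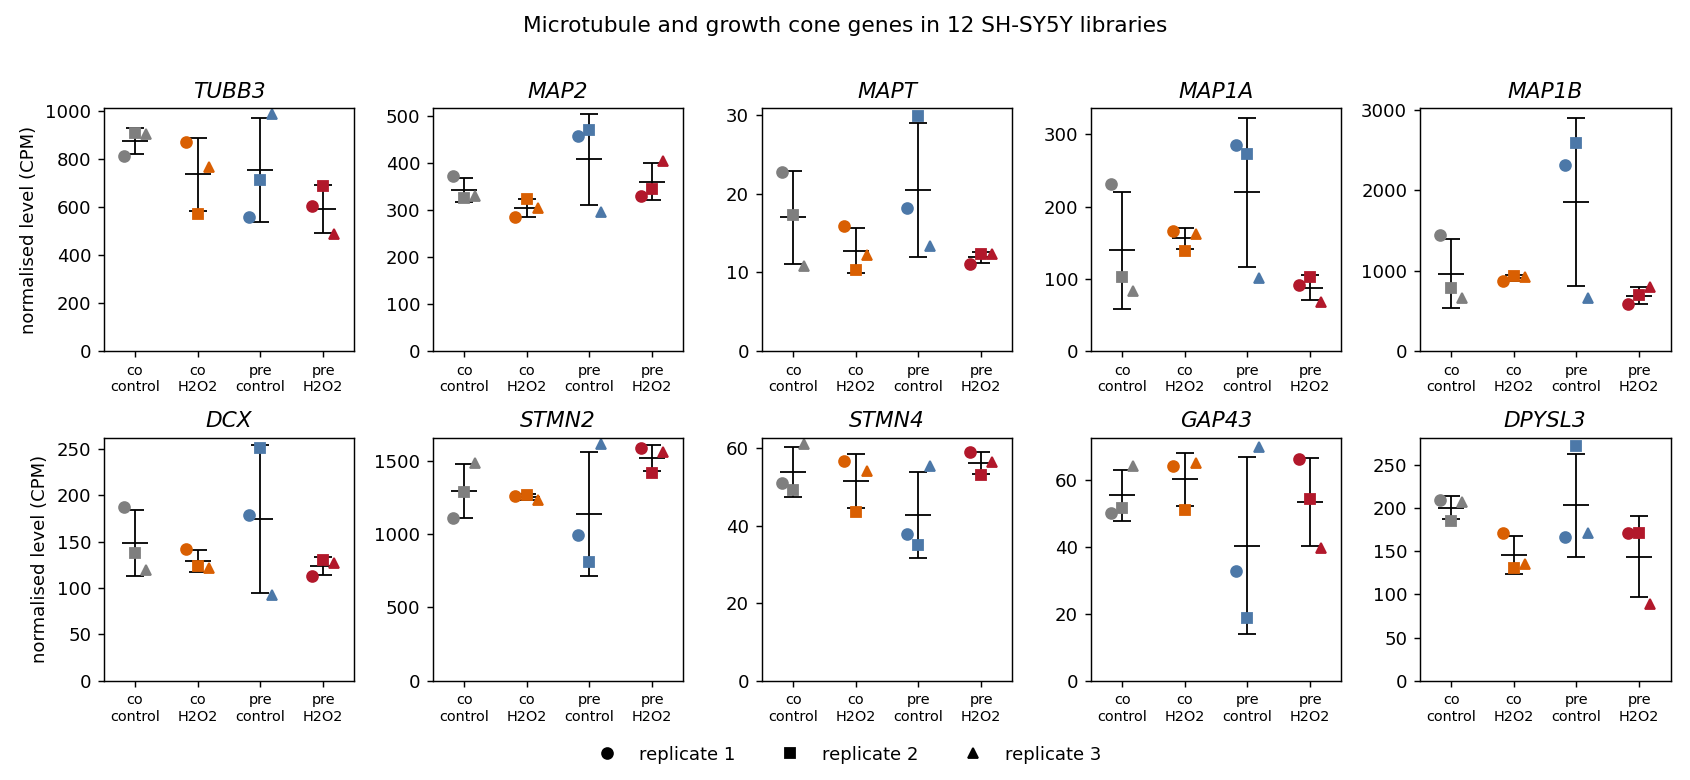
Normalised level (CPM, linear axis from 0) of each gene in all 12 libraries, with the mean and SD of each group as bars. In the pre-treatment controls (blue) the triangle, replicate 3, sits apart from replicates 1 and 2, below them for MAP1A and MAP1B and above them for TUBB3, STMN2, STMN4 and GAP43.

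TUBB3 encodes the beta-tubulin isotype typical of neurons. Its gene lies at chr16:89987800-90005169 on GRCh37, and its exons share 1584 bases with another protein-coding gene on the same strand, while 5.35% of the 100-base stretches of its transcript also occur in another gene, most often TUBB2A, so some of its reads may be assigned otherwise. It stood at 811, 909 and 902 CPM in co-treatment controls and at 869, 573 and 764 CPM in treated cells. The groups overlapped through treated replicate 1, and the log2FC was −0.25 ± 0.16 (SE, quasi-likelihood adjusted p = 0.786). In the pre-treatment experiment the controls held 558, 711 and 985 CPM and the treated cells 605, 685 and 486 CPM. Control replicate 3 was the highest of all 12 libraries, the groups overlapped, and the log2FC of −0.32 ± 0.26 (adjusted p = 0.67, quasi-likelihood) became −0.03 ± 0.17 without it, −0.51 without control replicate 1 and −0.74 with control replicate 3 as the only control.

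MAP2 stabilises microtubules in dendrites, and MAPT encodes tau, which does so along axons. MAP2 (chr2:210288771-210598871) was measured at 372, 327 and 332 CPM in co-treatment controls and at 286, 324 and 304 CPM in treated cells. Every treated library lay below every control library, by little: the log2FC was −0.17 ± 0.12 (quasi-likelihood adjusted p = 0.817). Before ATRA, H2O2 left it at 331, 345.5 and 405.5 CPM, against controls of 457, 472 and 296 CPM. Control replicate 3 was below all treated libraries and the other controls above them, so the log2FC was −0.14 ± 0.22 over 6 libraries and −0.29 ± 0.13 without it (quasi-likelihood adjusted p = 0.812 and 0.118). Without control replicate 2 it was −0.05.

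MAPT (chr17:43971893-44105700) had the lowest level of the set. Its exons overlap those of the antisense gene MAPT-AS1 by 75 bases, and whether strand was used in counting is not given in the sources used here. It gave 22.75, 17.3 and 10.9 CPM in co-treatment controls and 15.85, 10.3 and 12.3 CPM in treated cells, overlapping ranges with a log2FC of −0.42 ± 0.24 (quasi-likelihood adjusted p = 0.743). The pre-treatment controls held 18.2, 29.85 and 13.4 CPM. The treated cells held 11.1, 12.3 and 12.3 CPM, below all 3 controls. MAPT was the only gene of the 10 whose pre-treatment groups did not overlap over all 6 libraries, where the treated libraries were all lower for 8.47% of all genes, and its log2FC was −0.745 ± 0.28 (quasi-likelihood adjusted p = 0.377). Without control replicate 3 the log2FC was −0.94 ± 0.21 (quasi-likelihood adjusted p = 0.0142), under the fold threshold, but without control replicate 2 it was −0.39.

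MAP1A and MAP1B encode related large MAPs, each cut into a heavy and a light chain, of which MAP1B prevails in growing axons and MAP1A in mature neurons. MAP1A (chr15:43803156-43823818) has a canonical transcript of 10.3 kb and MAP1B (chr5:71403061-71505392) one of 11.8 kb, the longest of the 10 genes. After co-treatment MAP1A read 232, 103 and 83.55 CPM in controls and 166, 139 and 163 CPM in treated cells. All treated libraries lay between control replicate 1 and the other controls, and the log2FC was 0.16 ± 0.29 (quasi-likelihood adjusted p = 0.949). Without control replicate 1 it was 0.74 with a quasi-likelihood adjusted p of 0.0143, the only call of the 10 genes in any co-treatment setting run. MAP1B showed the same arrangement, with 1451, 787 and 659 CPM in controls and 869.7, 929.7 and 928 CPM in treated cells. Its log2FC was −0.085 ± 0.24 over 6 libraries (quasi-likelihood adjusted p = 0.972) and 0.33 without control replicate 1 (adjusted p = 0.339). In that control replicate 0.37 reads fell outside genes per gene read, against 0.28 in each other co-treatment control. The treated replicates 1, 2 and 3 had 0.26, 0.43 and 0.34, and the part of this in the result was not tested.

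In the pre-treatment experiment MAP1A stood at 286, 273 and 101 CPM in controls and at 92.05, 102 and 68.4 CPM in treated cells. Control replicates 1 and 2 were the highest of all 12 libraries, whereas control replicate 3 lay within the range of the treated cells. The log2FC was −1.29 ± 0.36 over 6 libraries (quasi-likelihood adjusted p = 0.32) and −1.60 ± 0.16 without control replicate 3 (quasi-likelihood adjusted p = 0.00105). MAP1B stood at 2322, 2590 and 660.3 CPM in controls and at 581, 704 and 794 CPM in treated cells. Here too control replicate 3 fell among the treated libraries, and control replicates 1 and 2 averaged 3.72 times its level. The log2FC was −1.38 ± 0.45 (quasi-likelihood adjusted p = 0.326), or −1.75 ± 0.16 without control replicate 3 (quasi-likelihood adjusted p = 0.000903). With control replicate 3 as the only control, a choice made after seeing the data, MAP1A gave −0.21 and MAP1B 0.06 (quasi-likelihood adjusted p = 0.644 and 0.889), so the size of both and the direction of MAP1B rest on control replicates 1 and 2. Control replicates 1 and 2 also had the most reads outside genes and the smallest shares of small structured RNAs of the 12 libraries. Control replicate 3 had the fewest reads outside genes, 0.20 per gene read, but lay within the range of the treated cells in both genes. The part of these measures in the result was not tested.

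DCX encodes doublecortin, a microtubule-binding protein of migrating and young neurons. It lies at chrX:110537007-110655657 and read 188, 137.5 and 119 CPM in co-treatment controls and 143, 123 and 122 CPM in treated cells. The ranges overlapped, with a log2FC of −0.19 ± 0.16 (quasi-likelihood adjusted p = 0.849). Pre-treatment controls held 179, 251 and 92.1 CPM, and treated cells 113, 130.5 and 127 CPM. Control replicate 3 was the lowest of the 12 libraries and control replicate 2 the highest. The log2FC was −0.46 ± 0.31 over 6 libraries and −0.73 ± 0.15 without control replicate 3 (quasi-likelihood adjusted p = 0.614 and 0.0118), and it was −0.12 without control replicate 2 and 0.415 with control replicate 3 as the only control.

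STMN2 and STMN4 encode neuronal stathmins, which bind tubulin dimers and are anchored to membranes of the neurite and growth cone. STMN2 (chr8:80523352-80578393) read 1112, 1285 and 1485 CPM in co-treatment controls and 1263, 1264 and 1230 CPM in treated cells. The treated libraries lay within the control range, with a log2FC of −0.04 ± 0.14 (quasi-likelihood adjusted p = 0.976), and 1.96 SE on either side of it spans −0.32 to 0.23. Pre-treatment controls stood at 991, 807 and 1611 CPM and treated cells at 1584, 1416 and 1557 CPM. Control replicate 3 was above all treated libraries and the other controls were below them. The log2FC was 0.44 ± 0.29 over 6 libraries, 0.83 ± 0.145 without control replicate 3 and −0.09 with it as the only control (quasi-likelihood adjusted p = 0.599, 0.00612 and 0.764). Without control replicate 2 it was 0.23.

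STMN4 (chr8:27092825-27115937) was the less abundant stathmin, at 50.9, 49.2 and 61.1 CPM in co-treatment controls and 56.7, 43.5 and 54.0 CPM in treated cells. The log2FC between these overlapping groups was −0.06 ± 0.14 (quasi-likelihood adjusted p = 0.963). In the pre-treatment experiment the controls gave 37.8, 35.1 and 55.5 CPM and the treated cells 58.9, 53.1 and 56.4 CPM. As for MAP1A, control replicate 3 fell among the treated libraries. The log2FC was 0.41 ± 0.215 over 6 libraries and 0.695 ± 0.12 without control replicate 3 (quasi-likelihood adjusted p = 0.513 and 0.00576), and it was 0.01 with control replicate 3 as the only control.

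GAP43 encodes a membrane-bound protein of growth cones that is abundant in regenerating axons. It lies at chr3:115342357-115440337 and has the shortest transcript of the set, 1.498 kb. Co-treatment controls held 50.3, 51.8 and 64.15 CPM and treated cells 64.35, 51.1 and 65.2 CPM, overlapping groups with a log2FC of 0.12 ± 0.14 (quasi-likelihood adjusted p = 0.903). Pre-treatment controls ranged more widely than those of any other member relative to their mean (coefficient of variation 65.5%), at 32.7, 18.7 and 69.8 CPM, beside 66.3, 54.3 and 39.8 CPM in treated cells. Control replicate 3 was the highest of all 12 libraries and control replicate 2 the lowest. The log2FC was 0.42 ± 0.45 over 6 libraries, 1.13 ± 0.28 without control replicate 3 and −0.39 with it as the only control (quasi-likelihood adjusted p = 0.741, 0.0204 and 0.48). Without control replicate 2 it was 0.07.

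DPYSL3 encodes a collapsin response mediator, a cytosolic protein that acts in growth cone collapse and neurite extension. In the co-treatment experiment it (chr5:146770371-146889631) read 209, 185 and 207 CPM in controls and 171.5, 131 and 135 CPM in treated cells. All 3 treated libraries were below all 3 controls, as for MAP2, and these 2 of the 10 genes compare with 7.37% of all genes whose treated libraries were all lower. DPYSL3 had the largest co-treatment log2FC of the 10 genes, −0.46 ± 0.14, with a quasi-likelihood adjusted p of 0.261, and was the 1 gene of the 10 with an unadjusted p below 0.05. Leaving out any 1 co-treatment library moved this log2FC between −0.59 and −0.39. Pre-treatment controls held 166.5, 272 and 171 CPM and treated cells 171, 171.5 and 89.3 CPM. These groups overlapped, and the log2FC was −0.47 ± 0.30 over 6 libraries and −0.54 ± 0.29 without control replicate 3 (quasi-likelihood adjusted p = 0.587 and 0.205). It was −0.22 without control replicate 2 and also −0.22 without treated replicate 3.

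Whether the response differed between the 2 experiments was tested as an interaction over all 12 libraries, the pre-treatment log2FC minus the co-treatment log2FC. A gene was called at a quasi-likelihood adjusted p below 0.05. Per the study's methods, H2O2 was present for all 7 days of ATRA in the co-treatment and for 72 h in the pre-treatment. Experiment, time and length of exposure therefore cannot be told apart here. Of the 10 genes 0 were called, against 0.0287% of 24407 genes, and 2 had an unadjusted p below 0.05 (8.94% of all genes). MAP1A differed by −1.49 ± 0.55 and MAP1B by −1.33 ± 0.57 (quasi-likelihood adjusted p = 0.522 and 0.545). For the other 8 genes the difference lay between −0.365 and 0.47. Without pre-treatment control replicate 3, 4 of the 10 genes were called, against 8.02% of 25668. MAP1A (−1.82 ± 0.42) and MAP1B (−1.72 ± 0.34) had the lower log2FC after pre-treatment, and STMN2 (0.82 ± 0.20) and STMN4 (0.70 ± 0.19) the higher one, with quasi-likelihood adjusted p-values of 0.0212, 0.0129, 0.0275 and 0.0394.

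The genes also varied against each other within a library, which no scaling between libraries affects. The ratio of MAP1B to STMN2, in reads per kb, was 0.38 and 0.52 in pre-treatment control replicates 1 and 2, was 0.066 for control replicate 3, and came to 0.059, 0.080 and 0.082 after H2O2. In the co-treatment experiment it was 0.21, 0.099 and 0.072 in controls and 0.11, 0.12 and 0.12 in treated cells. The highest ratios thus belonged to 2 pre-treatment controls and next to co-treatment control replicate 1, and pre-treatment control replicate 3 lay within the range of the pre-treated cells. MAP1A per GAP43 followed, at 1.275 and 2.13 in pre-treatment control replicates 1 and 2 and between 0.19 and 0.67 in the other 10 libraries. The share of reads outside genes was also highest in those 2 libraries, and its part in the ratios was not tested.

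**Figure D3:**
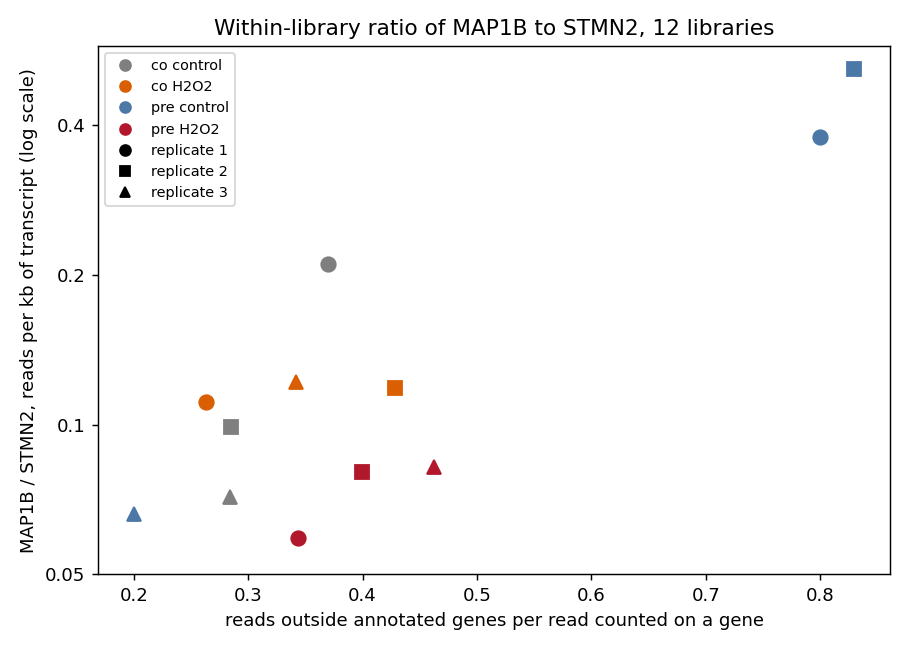
Ratio of MAP1B to STMN2 (reads per kb of transcript, log axis) in each of the 12 libraries against its number of reads outside annotated genes for each gene read. Pre-treatment control replicates 1 and 2 lie apart at 0.80 and 0.83 reads and ratios of 0.38 and 0.52, while control replicate 3 has 0.20 reads and a ratio of 0.066.

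The 10 genes differ in transcript length, and so did the pre-treatment fold changes over all genes. Without control replicate 3, 7 of the 10 genes had a quasi-likelihood adjusted p below 0.05, against 26.1% of all genes, and 8 had groups that did not overlap, against 57.2%. The 4 of these 7 with lower levels (MAPT, MAP1A, MAP1B and DCX) have transcripts of 6.82 to 11.8 kb, and the 3 with higher levels (GAP43, STMN2 and STMN4) of 1.498 to 2.32 kb. TUBB3, at 1.71 kb, did not follow, with a log2FC of −0.03, and MAP2 and DPYSL3 did not pass. Over 13576 protein-coding genes in the same comparison, the median log2FC was 0.55 for transcripts under 1 kb, 0.38 for 1 to 2 kb, 0.20 for 2 to 4 kb, −0.01 for 4 to 8 kb and −0.29 above 8 kb. Over all 6 libraries these medians ran from 0.175 to −0.19, and after co-treatment they lay between −0.04 and 0.03. MAP1A and MAP1B were below the middle 50% of genes above 8 kb, which spans −0.76 to 0.08, and MAP2 and DCX within it. GAP43 and STMN2 were above the middle 50% of their class, 0.025 to 0.66, as was STMN4 above −0.19 to 0.485, whereas TUBB3, MAPT and DPYSL3 were below theirs. The part of transcript length in the results was not tested.

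**Figure D4:**
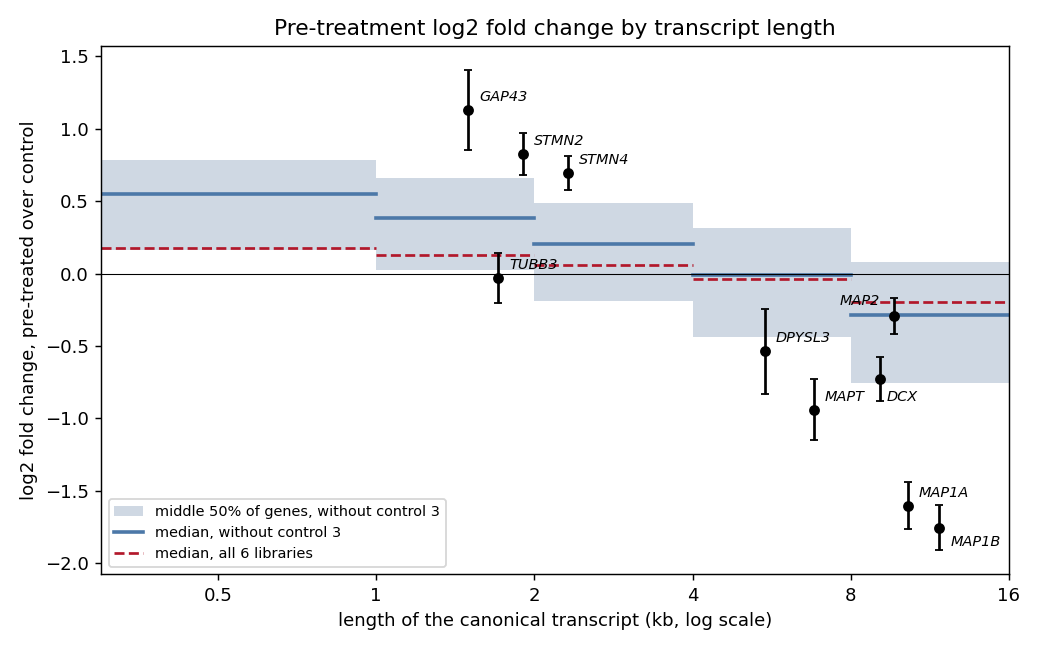
Pre-treatment log2FC without control replicate 3 (± SE) of the 10 genes against canonical transcript length (log axis), with the median and middle 50% of protein-coding genes in 5 length classes and, dashed, the medians over all 6 libraries. The class medians without control replicate 3 fall from 0.55 to −0.29, with MAP1A and MAP1B at −1.60 and −1.75 below their class.

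Beyond these 10 genes, 95 further genes of the same machinery were listed in 5 groups. After co-treatment 91 could be tested and 0 were called, against 0.598% of all genes. At an unadjusted p below 0.05, 2 were higher and 8 lower, beside 8.15% of all genes in either direction. The smallest p belonged to TUBB6, a widely expressed beta-tubulin, at 11.6, 11.1 and 12.2 CPM in controls and 19.0, 16.6 and 17.0 CPM in treated cells. The log2FC of TUBB6 was 0.59 ± 0.14 (quasi-likelihood adjusted p = 0.106). VASH2, part of a tubulin-detyrosinating enzyme, followed at −0.425, and then MAP1S, the short relative of MAP1A and MAP1B, at −0.73 (quasi-likelihood adjusted p = 0.443 and 0.471). By group, 21 of 27 other MAPs and tip-tracking proteins and 15 of 16 growth cone membrane and actin proteins had a log2FC below 0, with medians of −0.06 and −0.18. So did 8 of 15 other tubulins, 17 of 27 kinases, severing and modifying enzymes and 5 of 6 other stathmins and collapsin response mediators (medians −0.01, −0.05 and −0.10), beside 50.1% below 0 and −0.001 over all genes. Among protein-coding genes the share below 0 lay between 43% (transcripts under 1 kb) and 59.2% (4 to 8 kb). The groups were not matched for transcript length.

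After pre-treatment 92 of the 95 could be tested and 0 were called over all 6 libraries, against 0.0242% of all genes. At an unadjusted p below 0.05, 1 was higher and 19 lower, beside 11.2% of all genes in either direction. The split of all genes by direction at this p was not counted. The smallest p-values were those of MAP4, the MAP of most tissues (−1.04 ± 0.26), L1CAM, an adhesion molecule of axons (−1.45 ± 0.37), and MARK2, a kinase that releases MAPs from microtubules (−1.04 ± 0.28), each with a quasi-likelihood adjusted p of 0.32. MAP4 read 353.5, 344 and 181 CPM in controls and 145, 152 and 118 CPM in treated cells. Its treated libraries were all lower, as for 8.47% of all genes, although control replicate 3 lay nearer to the treated cells. Of the 6 other stathmins and collapsin response mediators, 6 had a log2FC below 0 (median −0.39), STMN1 at −0.005 being the nearest to 0, and 4 did without control replicate 3 (median −0.275). Over all genes 50.6% and 49.4% were below 0 in these comparisons, and among the other tubulins 7 and 4 of 16 (medians 0.04 and 0.175). Among protein-coding genes these shares ran from 26.5% and 20.4% for transcripts under 1 kb to 68.1% and 69.8% above 8 kb. The gene groups were not matched for transcript length, and its part in these counts was not tested.

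Without control replicate 3, 11 of 92 were called, or 12%, beside 11.2% of all genes. All 11 were lower, and over all genes calls were also mostly lower (8.23% of genes, against 2.98% higher). By adjusted p they were led by L1CAM (−1.76), GSK3B, a kinase of tau and MAP1B (−1.08), MAP4 (−1.26) and TUBB4A, a brain beta-tubulin (−2.58), followed by MARK2, FIGN, MARK4 and CDK5R2, with quasi-likelihood adjusted p-values of 0.000981 to 0.00789 for these 8. TUBB4A read 15.5 and 31.8 CPM in control replicates 1 and 2, 3.60 CPM in control replicate 3 and 2.71, 4.14 and 4.46 CPM in treated cells. Of the other tubulins, 5 of 16 had an adjusted p below 0.05 with a higher level, none of them past the fold threshold, and 1, TUBB4A, with a lower one, beside 13.2% and 12.8% of all genes. In the interaction over all 12 libraries 0 of 91 were called, against 0.0287% of all genes. The smallest p-values were those of TUBE1 (0.93), MAP4 (−1.15) and TUBB4A (−2.22), with quasi-likelihood adjusted p-values of 0.503, 0.511 and 0.511. Without pre-treatment control replicate 3 there were 9 of 92 (9.78%, against 8.02% of all genes), led by TUBB4A, GSK3B and MAP4, and TUBA1A was the only one of the 9 with a higher log2FC after pre-treatment (0.84, quasi-likelihood adjusted p = 0.0484).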

How the data were processed

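Raw read counts were used for 12 libraries of ribosome-depleted total RNA, as deposited by the authors. Per the labels and the study's methods, the authors prepared stranded libraries, checked reads with FastQC 0.11.8, trimmed them with cutadapt 2.10, mapped them to hg19 with HISAT2 2.1.0 and counted them per gene symbol with HTSeq 0.7.2. The strand setting and annotation version are not given in the sources used here. The 5 closing entries of each file (reads outside genes, ambiguous reads and the like) were kept out of library sizes and tests. The authors' tables of fold changes, average log2 CPM, p-values and FDR were not used. In 1 figure the study shows 5 of the 6 pre-treatment libraries, so the fit without control replicate 3 was made beside the fit over all 6. That replicate also differed most from its group in these data, so calls from that fit are not independent of the values.

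The software was R 4.3.3 with edgeR 4.0.16 (TMM factors, quasi-likelihood test), limma 3.58.1 and DESeq2 1.42.0 for the counts, while figures and sequences were handled in Python 3.11.15. Genes entered a fit when at least 3 libraries reached the CPM of 5 reads in its smallest library, or as many as its smaller group where libraries were left out. The Benjamini-Hochberg adjustment ran over all genes of a fit. Each SE given with a quasi-likelihood test is the absolute log2FC divided by the square root of the F statistic of that test. The multiplier of 1.96 is that of a normal distribution, so spans of 1.96 SE are narrower than the test itself would give. The code was tested on simulated counts. Gene positions and canonical transcript lengths come from GENCODE on GRCh37, and promoter sequences from RefSeq on GRCh38.p14, with no conversion between builds.

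The 10 genes and the gene and marker lists were chosen with earlier results of these data known. Named genes were all 10 members, called genes of the 5 pathway lists up to the 8 with the smallest adjusted p, the 3 with the smallest p in any case, the 1 gene most alike each member and the noradrenergic markers. VIM and COL3A1, the called mesenchymal markers, STMN1 and DESeq2's pair of calls were named after their values were seen. Alternatives were DESeq2, edgeR's exact test, limma-voom, DESeq2's size factors, library size alone, no filter, filterByExpr, 1 fit over both experiments, no fold threshold, a replicate block, each library left out, and, chosen after seeing the data, control replicate 3 as the only pre-treatment control.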

Additional observations from a re-analysis of the deposited data

How the results depend on the processing

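Both the counts of genes past the threshold and the fold changes moved with the libraries, and the cause was not tested. Of the 10 genes, DESeq2 called 2 after pre-treatment (MAP1A and MAP1B), and without a filter on low counts 1 was called after pre-treatment and 1 in the interaction (MAP1A in both). Leaving out single libraries gave 0 to 1 calls after co-treatment, 0 to 3 after pre-treatment and 0 to 4 in the interaction, the highest without co-treatment control replicate 1, pre-treatment control replicate 3 and again that replicate. Over all genes, 132 were called after co-treatment, 307 by DESeq2, 80 with library size alone, 443 unfiltered, 307 by the exact test, 3 in 1 fit over both experiments and, with a library left out, 18 (without treated replicate 3), 49 (control replicate 2), 54 (treated replicate 2) and up to 218 (control replicate 1). After pre-treatment 6 were called, 501 by DESeq2, 1 with library size alone, 300 unfiltered, 231 by the exact test, 0 by limma-voom, 61 in 1 fit over both experiments and 0 to 2952 with a library left out, the most without control replicate 3 and 0 without any other single library. In the interaction 7 were called, 108 by DESeq2, 4 with library size alone, 272 unfiltered, 11 with control replicate 3 as the only pre-treatment control and 0 to 2058 with a library left out, of which the most came without pre-treatment control replicate 3 and at most 4 without any single library other than pre-treatment control replicates 2 and 3. A replicate block gave 180 calls after co-treatment, 0 after pre-treatment and 0 in the interaction. Residuals of same-numbered libraries correlated by −0.066, −0.074 and −0.065 in the co-treatment and −0.229, 0.029 and −0.279 in the pre-treatment experiment, so the numbers are not treated as pairs. Signs turned after co-treatment for STMN2 with library size alone (0.011) and for MAP1B under the block (0.005) and limma-voom (0.001), and in the interaction for MAP2 unfiltered (0.023) and under the block (0.017). With single libraries left out, the co-treatment log2FC ran from −0.106 to 0.742 for MAP1A, −0.299 to 0.334 for MAP1B, −0.331 to 0.015 for DCX, −0.141 to 0.065 for STMN2 and −0.139 to 0.043 for STMN4. The interaction ran from −0.251 to 0.163 for TUBB3, −0.179 to 0.142 for MAP2, −0.588 to 0.038 for MAPT, −0.588 to 0.098 for DCX, −0.047 to 0.95 for GAP43 and −0.172 to 0.249 for DPYSL3. With control replicate 3 as the only pre-treatment control, the pre-treatment log2FC was 0.278 for MAP2, 0.061 for MAP1B, 0.415 for DCX, −0.093 for STMN2 and −0.392 for GAP43. For the others it was −0.742 (TUBB3), −0.175 (MAPT), −0.213 (MAP1A), 0.009 (STMN4) and −0.26 (DPYSL3). The interaction was then 0.455 for MAP2, 0.245 for MAPT, 0.154 for MAP1B, 0.616 for DCX, −0.044 for STMN2, −0.512 for GAP43 and 0.2 for DPYSL3. That fit assumes that the lone control varies like the other libraries. The pre-treatment log2FC kept its sign for all 10 genes under every other alternative, but with single libraries left out it ran from −0.506 to −0.029 for TUBB3, −0.294 to −0.047 for MAP2, −0.94 to −0.391 for MAPT, −1.602 to −1.073 for MAP1A, −1.755 to −1.087 for MAP1B, −0.728 to −0.116 for DCX, 0.232 to 0.828 for STMN2, 0.277 to 0.695 for STMN4, 0.067 to 1.129 for GAP43 and −0.607 to −0.222 for DPYSL3. The end nearer 0 came without control replicate 2 for 8 of these genes (for DPYSL3 also without treated replicate 3), without control replicate 3 for TUBB3 and without control replicate 1 for MAP1A. The lowest count of any of the 10 genes was 372 reads, for MAPT, so the spread between libraries exceeds counting error.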

Other observations

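For each of the 10 genes, the gene whose log2 CPM, centred within each experiment, ran most alike over the 12 libraries was looked up among 24406 others. The closest were TRAPPC9 for MAP1B (Pearson r = 0.996), FAM127B for MAPT (0.989), IK for STMN2 (0.989), MIR600HG for MAP2 (0.987), MAP4 for MAP1A (0.982), IL11RA for GAP43 (0.978), DTD2 for STMN4 (0.976), CLCN6 for DCX (0.967), MGAT1 for TUBB3 (0.961) and TMEM105 for DPYSL3 (0.954). Among the 10 genes themselves, MAP1A and MAP1B ran most alike (0.919), then MAP1B and DCX (0.901) and STMN2 and STMN4 (0.901). MAP1B and STMN2 ran most nearly opposite (−0.964). These values describe 12 libraries that share the pre-treatment controls named above, and no test was made on them.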
